A study of Homo sapiens with 15 samples.

Results

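Interferon-stimulated genes are the genes that cells switch on when interferon binds its receptor. A list of 41 such genes was followed across breast epithelial cells of the HMT3522 series, by symbol, through the platform annotation of the arrays. Of the 41 genes, 40 had a probe set that names 1 gene, out of 12149 such genes on the arrays, and each was represented by its single-gene probe set with the highest mean. STAT2 was not analysed here. Of the 40, 36 passed the filter on dim probe sets and were tested among 9111 genes. IRF7, MX2, HERC5 and RSAD2 lay below it.

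RNA came from 15 samples grown in a 3-dimensional laminin-rich matrix and was measured on Affymetrix U133A arrays as log2 expression. The 9 samples called T4R here are HMT3522 T4 cells that the labels name reverts. Each had a different agent: GM6001, an agent labelled MMPs and ADAMs, TNF protease inhibitor–2, PD98059, LY294002, dominant-negative Rap1, Tyrphostin AG 1478, mAb225 and AIIB2. The 3 T4 samples are the malignant HMT3522 T4 line with no treatment in their labels, and the 3 S1 samples are the line HMT3522 S1, labelled normal. T4 and S1 belong to the same series of lines from breast tissue, so each line is a single source. The design text names a vehicle control without a sample, and no dose or time was found in the labels. No agent has a second sample, so the spread within T4R is a spread over agents, and nothing states that the S1 or T4 samples came from separate cultures.

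Type I interferons act through the receptor chains IFNAR1 and IFNAR2 and the kinases JAK1 and TYK2. The complex ISGF3, of which STAT2 and IRF9 are parts, then binds interferon-stimulated response elements in promoters. Interferon gamma acts through IFNGR1, IFNGR2, JAK1 and JAK2, and its target promoters carry GAS elements. The induced proteins degrade or block viral RNA, hold virus particles at membranes, conjugate the ubiquitin-like ISG15, and feed the immunoproteasome. Part of the set is known to be expressed in breast carcinoma cells without added interferon, at levels that differ between tumours and lines.

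The promoter sequences below carry the response element core in genes that differed between groups, and in ISG15, which did not pass the test in any comparison. Promoters were the 250 bases before to 50 bases after each gene's start, from RefSeq (GRCh38.p14), and 32 of the 41 genes had an entry. The core searched was GAAA, any 2 bases and GAAA again, on both strands, and matches were allowed to overlap each other. It was found in 20 of the 32 promoters (62.5%), against 3.57% of all 35116 promoters in the table. Capitals mark the core or, where the gene's strand holds its reverse complement, that complement. IFIT1, IFIT5, BST2 and ISG20 passed the test between T4R and T4, and LGALS3BP, GBP1, IFITM1 and OAS3 are among the genes higher in T4 than in S1. GBP2 and USP18 are named without a sequence.
IFIT1 (chr10:89392477-89392559, plus strand): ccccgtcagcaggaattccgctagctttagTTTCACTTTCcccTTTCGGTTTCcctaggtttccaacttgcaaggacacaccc
IFIT5 (chr10:89414493-89414567, plus strand): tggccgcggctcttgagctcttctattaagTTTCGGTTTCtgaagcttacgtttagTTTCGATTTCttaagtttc
BST2 (chr19:17405715-17405790, minus strand): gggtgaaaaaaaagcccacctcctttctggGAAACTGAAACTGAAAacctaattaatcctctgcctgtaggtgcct
ISG20 (chr15:88638917-88638986, plus strand): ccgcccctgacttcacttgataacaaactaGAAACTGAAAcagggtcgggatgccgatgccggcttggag
LGALS3BP (chr17:78979942-78980011, minus strand): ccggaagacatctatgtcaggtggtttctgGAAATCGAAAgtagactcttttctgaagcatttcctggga
GBP1 (chr1:89065296-89065365, minus strand): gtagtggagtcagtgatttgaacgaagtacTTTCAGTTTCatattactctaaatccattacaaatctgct
IFITM1 (chr11:313970-314039, plus strand): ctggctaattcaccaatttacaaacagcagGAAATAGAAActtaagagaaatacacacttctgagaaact
OAS3 (chr12:112938432-112938473, plus strand): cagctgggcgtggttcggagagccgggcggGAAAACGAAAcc
ISG15 (chr1:1013354-1013429, plus strand): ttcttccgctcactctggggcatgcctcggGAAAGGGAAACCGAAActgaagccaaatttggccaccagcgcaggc

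All of these stretches lie upstream of the start, and the first marked base lies 116 bases upstream in IFIT1, 58 in LGALS3BP and 12 in OAS3. IFIT5, IFITM1 and OAS3 each have 1 more match that is not wholly within the stretch shown. The response element core was found in 5 of 7 promoters of members higher in T4 than in S1 (71.4%) and in 9 of 15 of tested members that passed in no comparison (60.0%). The GAS core TTCNNNGAA was found in 8 of 32 member promoters (25%), against 7.66% of all promoters. A match describes these letters and says nothing of whether a factor binds there.

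The values were deposited as 2 tables by array type. The first table held 8 samples, namely GM6001, MMPs and ADAMs, LY294002, the 3 T4 samples and S1 samples 1 and 2. The second held the other 6 agents and S1 sample 3. T4 therefore has no sample in the second table, and the step between tables was estimated from T4R and S1 alone. S1 sample 3 stood apart from its group: it differed 2-fold or more from S1 samples 1 and 2 in 6 and 7 members, while those samples differed in 0 members from each other. Over all 9111 genes the same counts were 553 and 648, against 16 between S1 samples 1 and 2. T4 sample 3 differed from the other T4 samples by at least 2-fold in 1 and 2 members, and in 356 and 426 of all genes. The epithelial keratins KRT5 and KRT14 were between 13.12 and 14.52 in every sample. Of the other epithelial markers, KRT18 was higher in T4 than in S1 (0.98, adjusted p = 0.00331) and lower in T4R than in T4 (-1.07, adjusted p = 0.00255), EPCAM was higher in T4R than in T4 (0.93, adjusted p = 0.0214), and KRT8 was higher in T4R than in S1 (0.71, adjusted p = 0.0342). Of the markers of other cell types with a probe set, 3 of 6 for leukocytes (PTPRC, CD68 and MS4A1), 3 of 5 for endothelium (PECAM1, VWF and CDH5) and 1 of 6 for fibroblasts (LUM) lay below the filter on dim probe sets, while CD3D, CD14, ITGAM, KDR, TEK, COL1A1, COL1A2, COL3A1, PDGFRB and DCN passed it. Of the plasmacytoid dendritic cell markers, IL3RA lay below the filter and TCF4 passed it. The part of these markers in the member values was not tested.

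The malignant T4 cells carried more RNA of part of the interferon-stimulated set than the S1 cells. Of the 36 members tested, 9 were higher and 1 was lower in T4, where 14.6% of all 9111 genes were higher and 12.3% were lower (limma, Benjamini-Hochberg adjusted p under 0.05, table as a block). The median log2 difference was 0.33 over the members and 0.01 over all genes. In 19 of the 36 members (52.8%) every T4 value lay above every S1 value, which held for 19.7% of all genes, and in 1 member every T4 value lay below. The genes that were higher span a secreted glycoprotein, membrane proteins that restrict virus entry, the synthetases that activate RNase L, and a GTPase. In bulk RNA, fewer cells of a type and less RNA per cell cannot be told apart.

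LGALS3BP, which encodes a secreted galectin-binding glycoprotein, differed most. It was 9.70, 9.69 and 9.50 in T4 samples 1, 2 and 3, against 7.36, 7.45 and 6.87 in S1 samples 1, 2 and 3. The T4R samples ran from 9.57 with LY294002 through a median of 9.98 to 10.54 with AIIB2, so all 12 T4R and T4 values lay above S1. T4 exceeded S1 by 2.42 ± 0.21 on the log2 scale (SE), or 5.34-fold (limma adjusted p = 4.21e-06).

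The IFITM proteins sit in membranes and hinder the fusion of enveloped viruses. IFITM2 was 11.40, 11.65 and 11.22 in T4, against 10.33, 10.23 and 8.09 in S1, a difference of 1.76 ± 0.45 on the log2 scale (adjusted p = 0.0104). IFITM1 was 9.07, 9.09 and 8.61 in T4, against 7.88, 7.74 and 6.78 in S1, a difference of 1.46 ± 0.45 (adjusted p = 0.0264). In both genes the T4 and S1 values did not overlap, and S1 sample 3 was the lowest value. IFITM3, also without overlap and lowest in S1 sample 3, was 12.43, 12.59 and 12.33 in T4, against 12.07, 11.83 and 9.62 in S1, and its difference of 1.12 ± 0.46 did not pass the test (adjusted p = 0.0835). With replicate number as a block it did (1.22, adjusted p = 0.0301), and so did it within the first table alone, which leaves out S1 sample 3 (0.50, adjusted p = 0.023). It did not pass when S1 sample 3 alone was omitted and both tables were kept. In that same fit without S1 sample 3 the difference of IFITM2 was 1.14 (adjusted p = 0.00278). That of IFITM1 was 1.11 and did not pass (adjusted p = 0.0714, but 0.00884 within the first table alone). Omitting T4 sample 1 (0.0703) or 2 (0.0687) also ended the IFITM1 call. The IFITM genes are close paralogs and their probe sets are of the kind marked as able to bind related transcripts, so how the signal divides among them is uncertain. BST2, the tetherin that holds budding virions at the cell surface, was 9.45, 9.58 and 9.28 in T4, against 9.23, 9.34 and 8.45 in S1, with overlap (0.32 ± 0.14, adjusted p = 0.116; 0.35 and 0.0185 with replicate number as a block).

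The 2'-5'-oligoadenylate synthetases make the messenger that activates RNase L, and 3 of them were higher in T4. OAS2 was 8.32, 8.53 and 7.87 in T4, against 7.33, 7.37 and 7.20 in S1 (1.02 ± 0.23, adjusted p = 0.00565). OAS3 was 8.50, 8.51 and 8.75 in T4, against 7.77, 7.68 and 8.32 in S1 (0.83 ± 0.17, adjusted p = 0.00247). OAS1 was 8.48, 8.84 and 8.07 in T4, against 7.47, 7.43 and 7.42 in S1 (1.02 ± 0.34, adjusted p = 0.0381). T4 and S1 did not overlap in any of the 3 genes. The OAS1 call was lost in several settings, among them its other probe set (0.83, adjusted p = 0.159) and the omission of S1 sample 1, 2 or 3 (adjusted p = 0.0924, 0.102 and 0.0614), of T4 sample 1 or 2 (0.0809 and 0.122), of MMPs and ADAMs (0.0528) or of LY294002 (0.0513). The OAS3 call was lost with quantile normalization across the tables in place of the table block (0.59, adjusted p = 0.0653). The related OASL (0.17) did not pass, and neither did SAMHD1 (-0.05), a triphosphohydrolase that depletes nucleotides.

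ISG20, an exonuclease that degrades RNA, was 8.89, 8.76 and 8.33 in T4, against 7.33, 7.32 and 6.95 in S1 (1.42 ± 0.26, adjusted p = 0.00123). GBP1, a guanylate-binding GTPase, was 8.93, 9.48 and 8.38 in T4, against 7.74, 8.01 and 6.94 in S1 (1.10 ± 0.26, adjusted p = 0.00607). IFI35, a leucine zipper protein that partners NMI, was 8.49, 8.60 and 8.68 in T4, against 7.83, 7.89 and 7.27 in S1 (0.83 ± 0.18, adjusted p = 0.00444). In all 3 the T4 and S1 samples were fully apart. The GBP1 call was lost within the first table alone (1.05, adjusted p = 0.0503). It was also lost when all T4R samples were left out (1.05, adjusted p = 0.0793). In a limma fit of all single-gene probe sets, the other GBP1 probe set gave 0.49 and did not pass (adjusted p = 0.0893). The probe set used gave 1.10 there (adjusted p = 0.0096). Like those of the IFITM genes, it is of the kind marked as able to bind related transcripts.

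The IFIT proteins bind foreign RNA ends and block translation of that RNA, and of the 4 IFIT genes 1 was lower in T4 and 3 did not pass. IFIT2 differed by -0.10 (adjusted p = 0.822) with overlapping groups, and IFIT3 by 0.24 (adjusted p = 0.499) with T4 wholly above S1. IFIT5 was 7.76, 7.83 and 7.91 in T4, against 8.38, 8.50 and 7.94 in S1, and was the member that was lower in T4 (-0.45 ± 0.15, adjusted p = 0.0383). Its groups did not overlap, though S1 sample 3 lay only just above the highest T4 value, and the call ended with S1 sample 1 (adjusted p = 0.14) or 2 (0.195), T4 sample 1 (0.101), 2 (0.076) or 3 (0.0545), or GM6001 (0.0539) omitted. IFIT1 was 7.58, 7.61 and 7.05 in T4, against 8.86, 8.62 and 6.87 in S1. Here S1 sample 3 lay below all T4 samples and the other S1 samples lay above them, and the difference of -0.88 ± 0.40 did not pass (adjusted p = 0.126). Within the first table, which leaves out S1 sample 3, it was -1.32 (adjusted p = 0.00195).

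Several hallmark members did not pass between T4 and S1. ISG15 was 7.69, 7.62 and 8.40 in T4, against 7.59, 7.81 and 7.11 in S1, with overlap (0.36, adjusted p = 0.356). MX1, a dynamin-like GTPase that traps viral nucleocapsids, was 7.01, 7.05 and 7.09 in T4, against 6.90, 6.87 and 6.89 in S1, apart but by 0.20 (adjusted p = 0.152). The transcription factor IRF9 was 9.01, 8.77 and 8.21 in T4, against 9.01, 8.77 and 8.07 in S1, nearly the same values (0.04, adjusted p = 0.95), and ran from 7.80 with Tyrphostin AG 1478 through 8.13 to 9.51 with dominant-negative Rap1 in T4R. IRF1, the factor that interferon gamma induces early, was 7.60, 8.01 and 7.68 in T4, against 7.42, 8.02 and 6.93 in S1 (0.35, adjusted p = 0.52). In T4R it ran from 6.99 with LY294002 through 8.21 to 8.60 with mAb225, and the 3 groups overlapped. IRF7, the amplifier of interferon transcription, stayed dim in every sample, at 6.54 to 6.83 in T4R, 6.59, 6.85 and 6.62 in T4, and 6.65, 6.74 and 6.71 in S1, and was not tested.

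**Figure D1:**
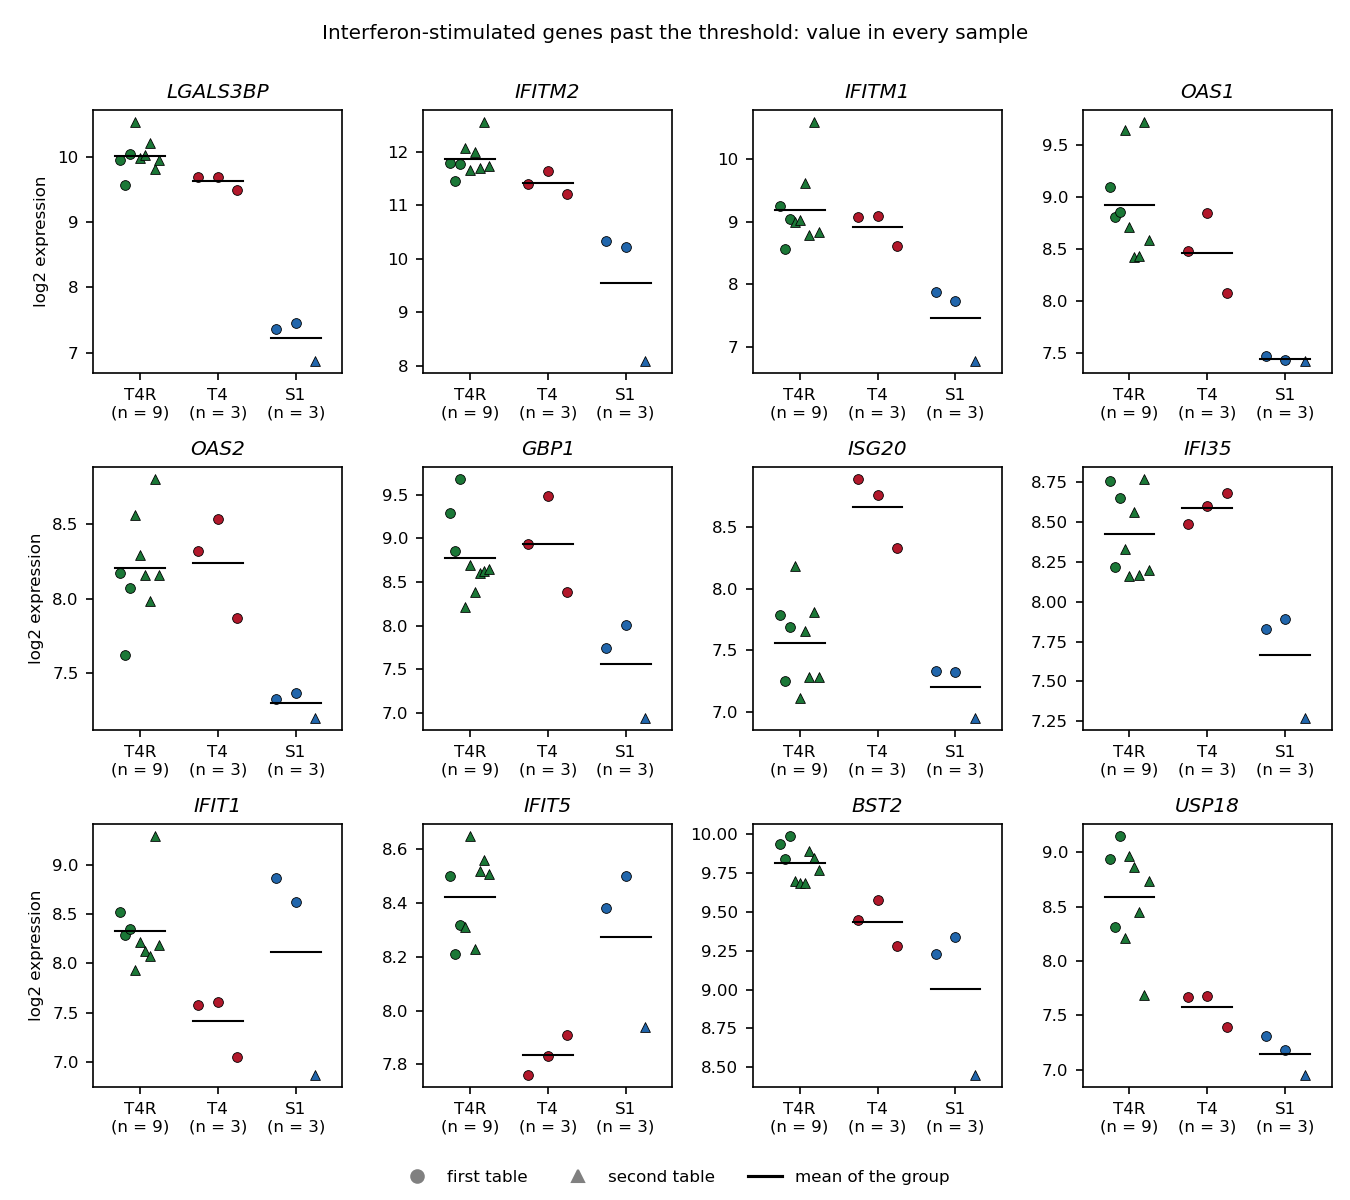
Log2 expression (vertical axis, scaled per gene) of 12 interferon-stimulated genes in T4R (9 samples), T4 (3) and S1 (3); circles are first-table samples, triangles second-table samples and bars group means. LGALS3BP sits between 9.50 and 10.54 in all T4R and T4 samples and at or below 7.45 in S1, while in ISG20 all T4R samples lie below T4.

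The plot of values by sample shows 3 shapes. LGALS3BP, IFITM1, IFITM2, OAS1, OAS2, GBP1 and IFI35 had all T4R and T4 samples above S1, ISG20 had T4 above both other groups, and IFIT1, IFIT5, BST2 and USP18 had T4R above T4.

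Against the T4 samples, the T4R samples had 5 members higher and 1 lower, where 6.46% of all genes were higher and 8.44% were lower. The 5 were USP18, IFIT1, GBP2, IFIT5 and BST2, and the 1 was ISG20. The median log2 difference was 0.25 over the members and 0.00 over all genes. The same 6 members were those whose T4R and T4 values did not overlap, 5 above (13.9%, against 6.76% of all genes) and 1 below. T4 is shared with the comparison against S1, so the differences in the 2 comparisons are not independent of each other.

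USP18 encodes the protease that removes ISG15 from its targets and also dampens signalling at IFNAR2. It ran from 7.69 with dominant-negative Rap1 through a median of 8.74 to 9.15 with MMPs and ADAMs in T4R, against 7.67, 7.68 and 7.39 in T4. The groups were separated, though dominant-negative Rap1 exceeded T4 sample 2 only in the second decimal. T4R exceeded T4 by 1.22 ± 0.27 on the log2 scale, or 2.32-fold (limma adjusted p = 0.00937).

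IFIT1 ran from 7.93 with AIIB2 through a median of 8.22 to 9.29 with dominant-negative Rap1 in T4R, above 7.58, 7.61 and 7.05 in T4. The difference was 1.27 ± 0.37, or 2.41-fold (adjusted p = 0.0358). This call was lost without S1 sample 2 (adjusted p = 0.053), T4 sample 1 (0.0672), 2 (0.0554) or 3 (0.127), or GM6001 (0.0599), and with quantile normalization across the tables in place of the table block (0.91, adjusted p = 0.0864). IFIT5 ran from 8.21 with LY294002 through 8.50 to 8.65 with PD98059 in T4R, above 7.76, 7.83 and 7.91 in T4, with no overlap (0.61 ± 0.14, adjusted p = 0.0101). Its second probe set differed in the same direction (0.59, adjusted p = 0.0292 in a fit of all single-gene probe sets). IFIT2 (0.64, adjusted p = 0.0924) and IFIT3 (0.31, adjusted p = 0.382) did not pass.

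BST2 ran from 9.69 with PD98059 through 9.84 to 9.99 with MMPs and ADAMs in T4R, above 9.45, 9.58 and 9.28 in T4. The range over the 9 agents was narrow, and the difference was 0.60 ± 0.13 (adjusted p = 0.00879). GBP2, a guanylate-binding GTPase like GBP1, fell outside the rule for genes given in full and is given after its values were seen, since it is 1 of the 5. It ran from 9.20 with Tyrphostin AG 1478 through 9.41 to 10.41 with dominant-negative Rap1 in T4R, above 8.42, 9.08 and 7.22 in T4 (1.31 ± 0.38, adjusted p = 0.0336). T4 was widely spread in GBP2, and without T4 sample 3 the difference was 0.80 (adjusted p = 0.138). The GBP2 call was also lost without S1 sample 2 (0.0509) or 3 (0.0618), T4 sample 1 (0.062), MMPs and ADAMs (0.0743) or LY294002 (0.0564), and within the first table alone (1.19, adjusted p = 0.0944).

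ISG20 was the member that fell with the agents. It ran from 7.11 with PD98059 through 7.66 to 8.18 with AIIB2 in T4R, against 8.89, 8.76 and 8.33 in T4, and every T4R value lay below every T4 value. The difference was -1.03 ± 0.24, 2.04-fold lower in T4R (adjusted p = 0.0114; 0.0502 without T4 sample 1). Its second probe set gave -0.97 (adjusted p = 0.00844 in the fit of all single-gene probe sets). Without T4 sample 1 the number of members past the threshold was 3 in place of 6, since IFIT1, GBP2 and ISG20 no longer passed.

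**Figure D2:**
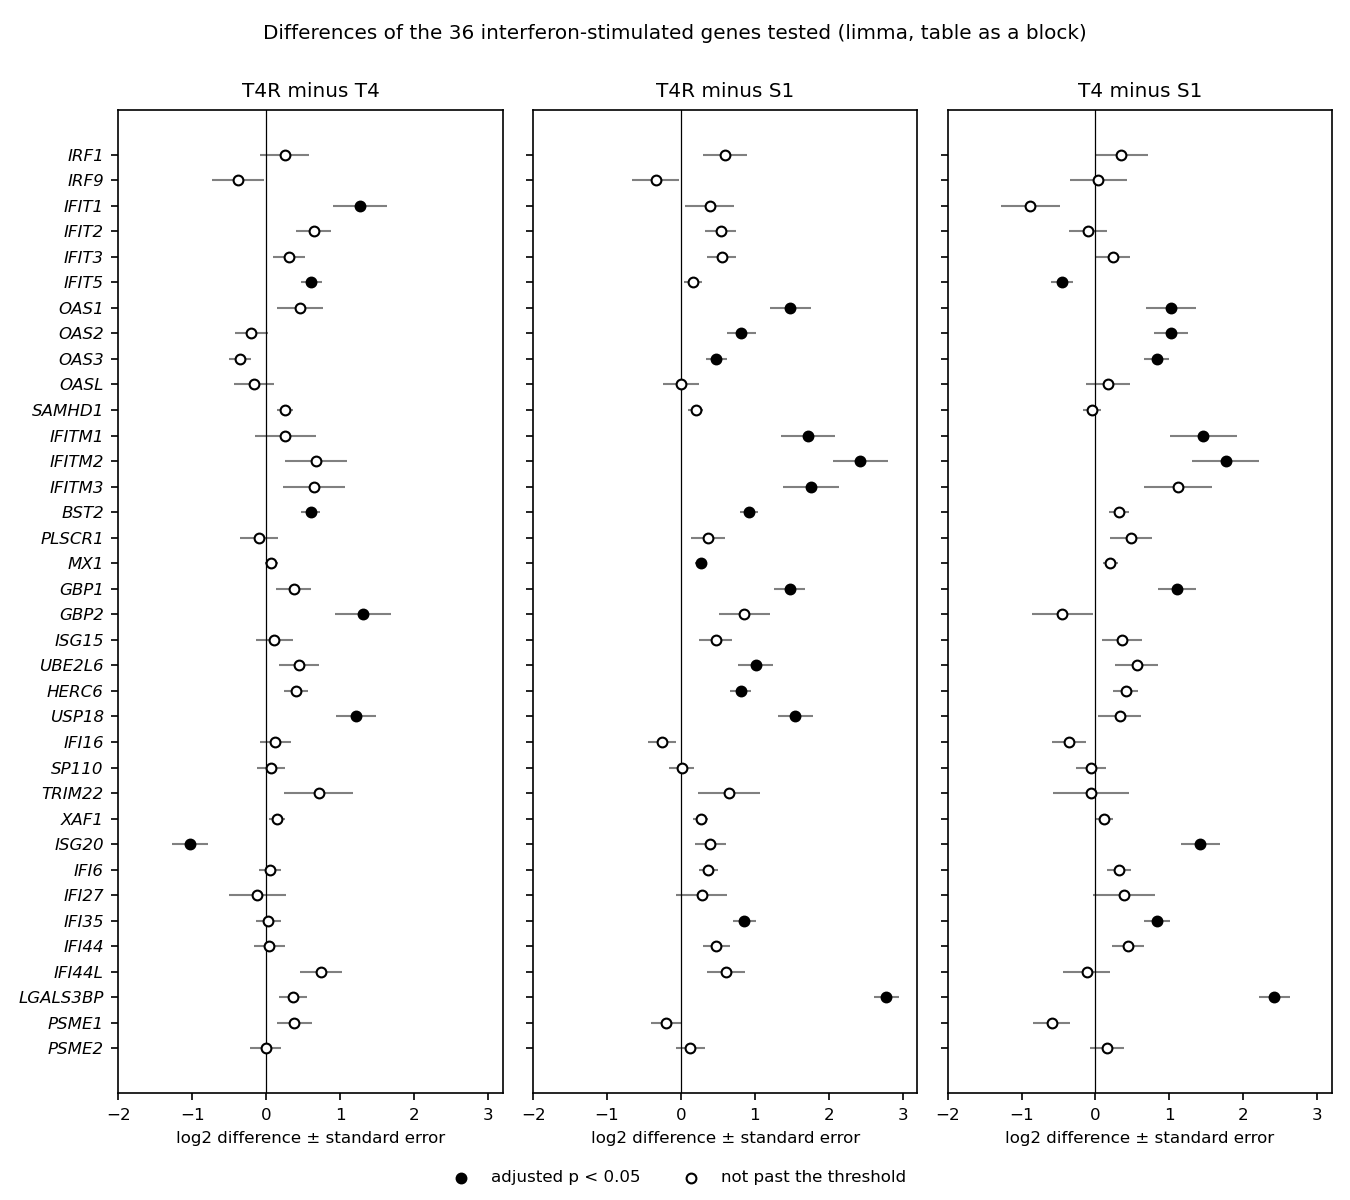
Log2 difference with its standard error (horizontal axis) for the 36 members tested, ordered by role, for T4R minus T4, T4R minus S1 and T4 minus S1; filled points have a limma adjusted p under 0.05. LGALS3BP lies at 2.78 and 2.42 against S1 and at 0.36 between T4R and T4.

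Against S1, the T4R samples had 14 members higher and 0 lower, where 11.8% of all genes were higher and 11.4% were lower. The 14 were LGALS3BP, IFITM1, IFITM2, IFITM3, BST2, OAS1, OAS2, OAS3, GBP1, MX1, UBE2L6, HERC6, USP18 and IFI35. The median log2 difference was 0.51 over the members and 0.00 over all genes, and T4R lay wholly above S1 in 16 of 36 members (44.4%, against 8.13% of all genes). Within the first table alone 11 were higher and 2 were lower, IRF9 (-0.79, adjusted p = 0.0435) and IFI16 (-0.61, adjusted p = 0.0223). ISG20 is not among the 14: it differed from S1 by 0.40 in T4R (adjusted p = 0.206) and by 1.42 in T4, as the plot of differences shows. The S1 samples are shared by both of those comparisons.

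LGALS3BP exceeded S1 by 2.78 ± 0.17 in T4R, or 6.85-fold (adjusted p = 2.38e-07). IFITM2 ran from 11.46 with LY294002 through 11.77 to 12.56 with dominant-negative Rap1 in T4R (2.43 ± 0.37 against S1, adjusted p = 0.000448). IFITM1 ran from 8.57 with LY294002 through 9.02 to 10.59 with dominant-negative Rap1 (1.72 ± 0.37, adjusted p = 0.00444). IFITM3 ran from 12.50 with LY294002 through 12.70 to 13.49 with dominant-negative Rap1 (1.76 ± 0.38, adjusted p = 0.00437). In these 3 genes the lowest T4R sample was LY294002 and the highest dominant-negative Rap1, and no T4R value reached down to S1. Without S1 sample 3 the differences were 1.40 for IFITM2 (adjusted p = 0.00138), 1.14 for IFITM1 (0.0891) and 0.72 for IFITM3 (0.0566). BST2 exceeded S1 by 0.92 ± 0.12 (adjusted p = 0.00013).

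OAS1 ran from 8.42 with TNF protease inhibitor–2 through 8.81 to 9.72 with dominant-negative Rap1 in T4R, all above the S1 values of 7.47, 7.43 and 7.42 (1.48 ± 0.28, adjusted p = 0.00198). OAS2 ran from 7.62 with LY294002 through 8.16 to 8.80 with dominant-negative Rap1 (0.82 ± 0.19, adjusted p = 0.00765). OAS3 ran from 8.09 with LY294002 through 8.52 to 9.06 with dominant-negative Rap1 (0.48 ± 0.14, adjusted p = 0.0231). OAS1 and OAS2 were clear of S1, and OAS3 overlapped it. The call of OAS2 ended when S1 sample 3 was omitted (0.60, adjusted p = 0.109). That of OAS3 ended with S1 sample 1 (0.0607), 2 (0.0803) or 3 (0.0615) or GM6001 (0.0577) omitted.

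USP18, HERC6 and UBE2L6, enzymes tied to ISG15, were higher in T4R than in S1, while ISG15 itself did not pass. USP18 was 7.69 to 9.15 in T4R, all above the S1 values of 7.31, 7.18 and 6.95 (1.55 ± 0.24, adjusted p = 0.000549). HERC6, a HECT-domain ligase that attaches ISG15 in mouse, ran from 7.51 with LY294002 through 7.83 to 8.27 with AIIB2 in T4R, with 7.17, 7.41 and 7.66 in T4, against 6.99, 7.13 and 6.93 in S1 (0.81 ± 0.14, adjusted p = 0.00104). UBE2L6, the conjugating enzyme, ran from 9.43 with PD98059 through 9.69 to 10.37 with dominant-negative Rap1 in T4R, with 9.77, 9.76 and 9.12 in T4, against 9.18, 9.33 and 8.15 in S1 (1.01 ± 0.24, adjusted p = 0.00765). All T4R values of these enzymes lay above S1, and without S1 sample 3 the call of UBE2L6 was lost (0.56, adjusted p = 0.159). Between T4 and S1 UBE2L6 differed by 0.56 (adjusted p = 0.166; 0.63 and 0.044 with replicate number as a block). ISG15 ran from 7.50 with LY294002 through 7.92 to 8.54 with dominant-negative Rap1 in T4R and overlapped S1 (0.47, adjusted p = 0.151).

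GBP1 ran from 8.21 with AIIB2 through 8.65 to 9.68 with MMPs and ADAMs in T4R, clear of S1 (1.47 ± 0.21, adjusted p = 0.000288). IFI35 ran from 8.16 with PD98059 through 8.33 to 8.77 with dominant-negative Rap1, also clear of S1 (0.86 ± 0.15, adjusted p = 0.00126). MX1 ran from 7.02 with LY294002 through 7.20 to 7.44 with mAb225, close above S1 (0.27 ± 0.08, adjusted p = 0.0275). Its call was lost without S1 sample 2 (0.0598), S1 sample 3 (0.207) or GM6001 (0.0632). Without S1 sample 3 the number of members past the threshold was 8 in place of 14, and without LY294002 it was 21.

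Marker genes of other cell types were read beside these counts. Of 8 leukocyte markers 6 were measured and 3 passed the filter, and 1 of them, CD14, was higher in T4 (0.97, adjusted p = 0.0132) and in T4R (0.77, adjusted p = 0.0183) than in S1. Their summed log2 values ran from 41.73 to 43.27 in T4R, 41.86 to 43.21 in T4 and 41.56 to 41.77 in S1, with PTPRC, CD68 and MS4A1 near the floor. All 6 fibroblast markers were measured, and COL1A1 (1.46, adjusted p = 0.0237) and COL3A1 (0.21, adjusted p = 0.0486) were higher in T4R than in S1. Their sums ran from 44.45 to 46.76 in T4R, 43.94 to 44.82 in T4 and 43.43 to 43.69 in S1. Of 3 plasmacytoid dendritic cell markers 2 were measured, and 1 passed the filter. That gene, TCF4, was lower in T4 than in S1 (-1.31, adjusted p = 0.0186). It did not pass in T4R against T4 (0.59, adjusted p = 0.284) or against S1 (-0.72, adjusted p = 0.114). The part of these genes in the member counts was not tested.

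The 9 agents were set into 3 classes of 3 by what they act on, and no member differed between classes. The protease class held GM6001, MMPs and ADAMs and TNF protease inhibitor–2. The second class held PD98059, which inhibits MEK, LY294002, which inhibits phosphoinositide 3-kinase, and dominant-negative Rap1, a blocked form of a small GTPase. The third held Tyrphostin AG 1478 and mAb225, which act on the EGF receptor, and AIIB2, an antibody that blocks beta1-integrin. In limma's F-test 0 members and 0.0% of all genes passed, and the lowest adjusted p of a member was 0.903. At an unadjusted p under 0.05 there were 3 members, IFI44L, PSME2 and XAF1, against 5.44% of all genes.

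Against T4, the protease class had 4 members higher (USP18, BST2, IFI44L and IFIT5) and 1 lower (ISG20), where 4.6% and 6.22% of all genes passed. USP18 differed by 1.45 there (adjusted p = 0.00566) and IFI44L by 1.06 (adjusted p = 0.0143). The class of PD98059, LY294002 and dominant-negative Rap1 had 2 higher, IFIT5 and BST2, and 1 lower, ISG20 (3.68% and 5.37% of all genes). The class of EGF receptor and integrin agents had 1 higher, BST2 (2.54% of all genes), and 0 lower (3.62%). BST2 thus passed in each class, by 0.57, 0.62 and 0.75. Since the classes share the T4 samples and did not differ from each other in the F-test, a gene past the threshold in 1 class is not shown to differ from the others.

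**Figure D3:**
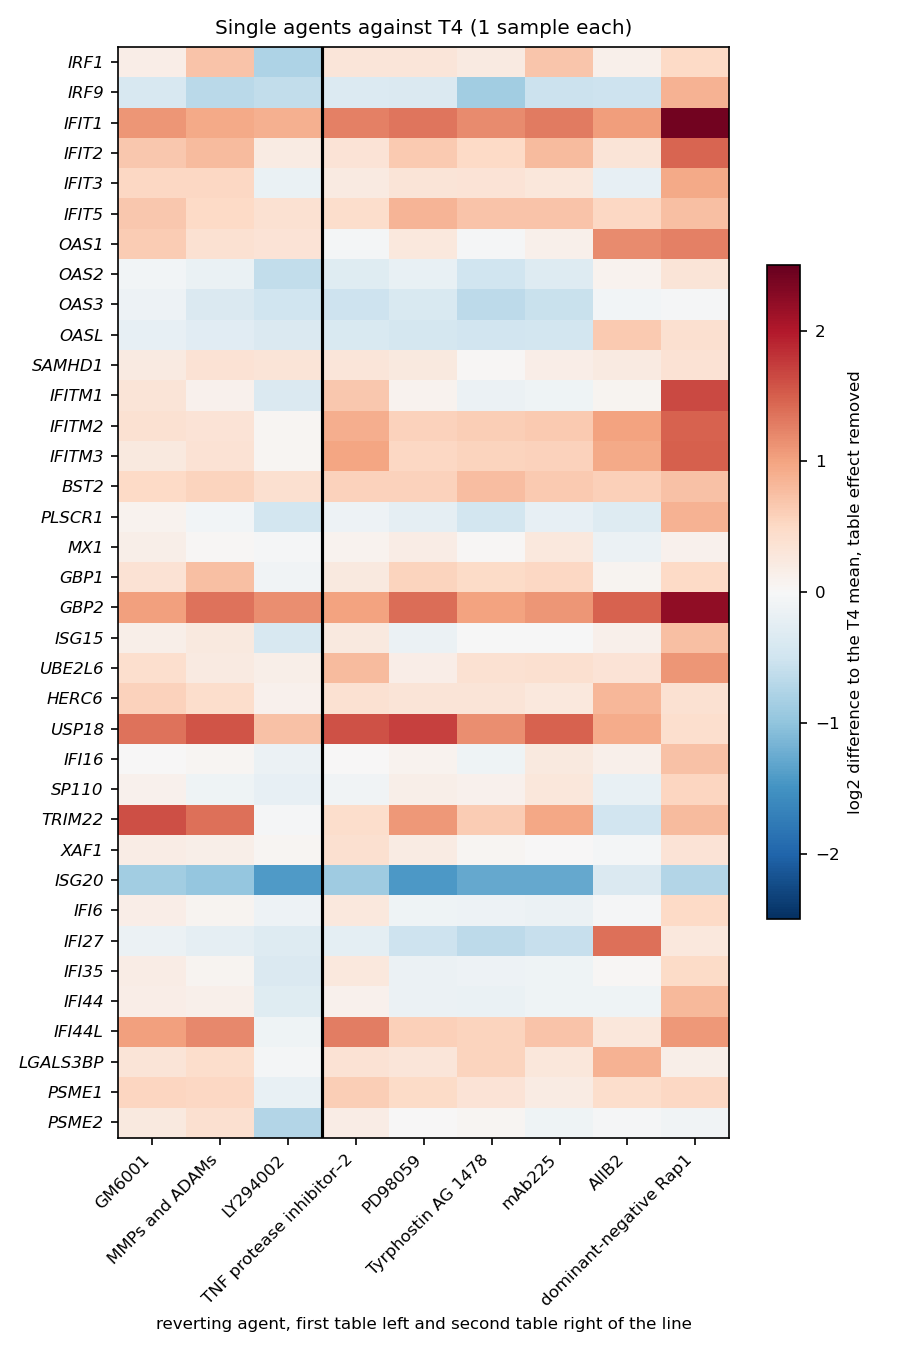
Log2 difference of each T4R sample from the T4 mean, after removal of the step between tables, for the 36 members (rows, by role) and the 9 agents (columns, first table left of the line); red is above T4 and blue below. Dominant-negative Rap1 reaches 2.41 in IFIT1, and ISG20 is below T4 with every agent.

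Single agents have 1 sample each, so what follows describes samples and carries no test. The step between tables, removed for the differences from T4, was estimated without any second-table T4 sample. In the map of agents against the T4 mean, IFIT1, GBP2, USP18, IFIT5 and BST2 were above T4 with all 9 agents and ISG20 was below with all 9. The median over the members was 0.63 with dominant-negative Rap1, between 0.08 and 0.35 with the other agents of the set apart from LY294002, and -0.12 with LY294002. Over all genes these medians lay between -0.02 and 0.00.

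Dominant-negative Rap1 had the highest value of the 6 second-table agents in 20 of 36 members (55.6%), against 27.4% of all genes. It was at least 2-fold above the T4 mean in 9 members (25%), against 3.1% of all genes: IFIT1, GBP2, IFITM1, IFITM3, IFITM2, IFIT2, OAS1, UBE2L6 and IFI44L. IRF9, the DNA-binding part of ISGF3, was 9.51 in that sample and between 7.80 and 8.31 in the other 5. IFIT1 was 9.29 against 7.93 to 8.22, and PLSCR1, a scramblase that interferon induces, was 10.02 against 8.71 to 9.03. IFIT2 was 8.44 against 7.32 to 7.80, IFIT3 8.42 against 7.26 to 7.82, IFI44 8.49 against 7.51 to 7.79 and ISG15 8.54 against 7.66 to 8.04. It was the lowest in 2 (27.5% of all genes), USP18, at 7.69 against 8.21 to 8.97, and LGALS3BP, at 9.82 against 9.96 to 10.54. Markers outside the members also stood apart in that sample: DCN was 9.57 against 7.28 to 8.70, ITGAM 8.02 against 7.39 to 7.60 and KRT18 11.57 against 10.63 to 10.85, each the highest of the 6. CDH1, at 9.34 against 10.64 to 11.92, and EPCAM, at 7.51 against 8.30 to 8.80, were the lowest. Their part in the member values was not tested.

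**Figure D4:**
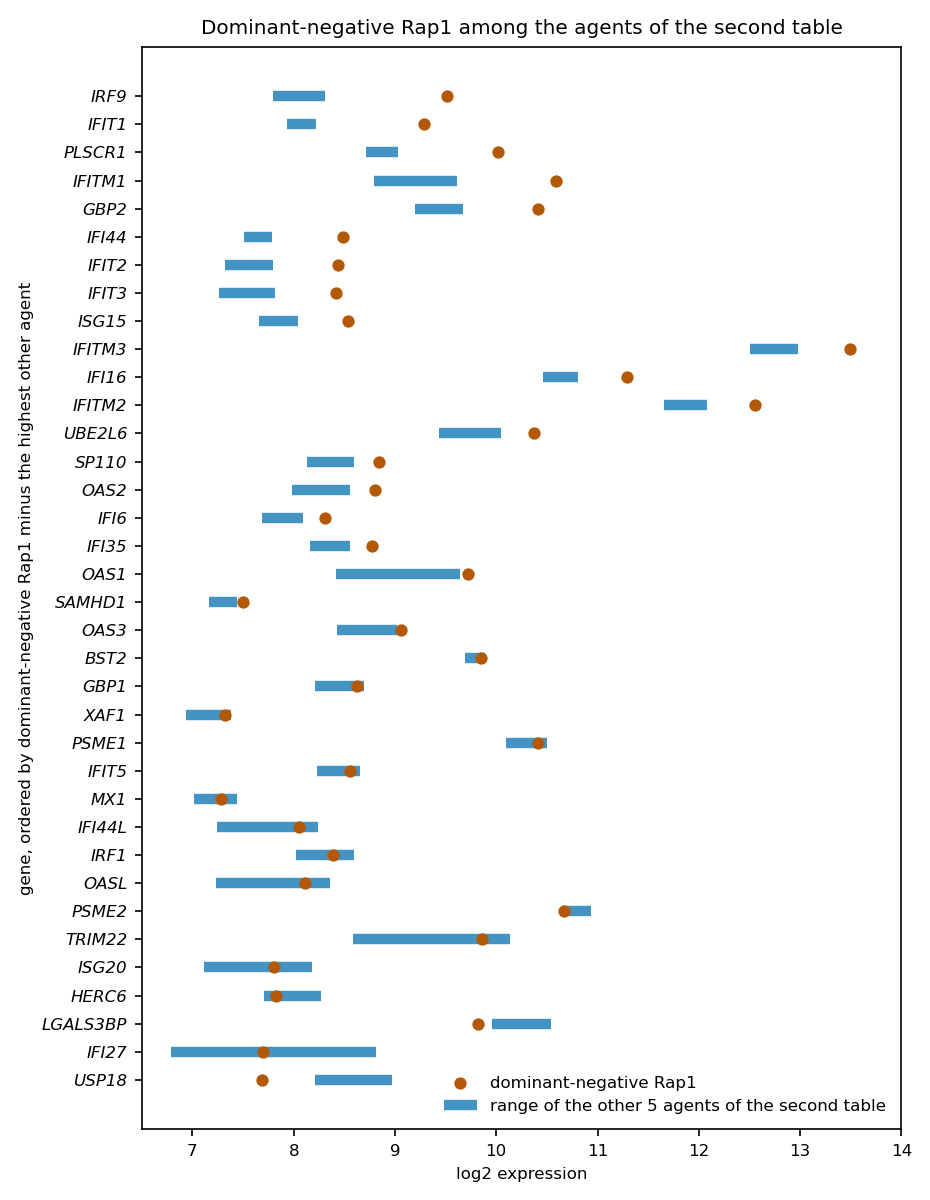
Log2 expression of the 36 members in the dominant-negative Rap1 sample (points) and the range over the other 5 agents of the second table (bars), ordered by the gap to the highest of them. IRF9 has the widest gap at the top (1.20), and USP18 lies below the bar at 7.69.

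The plot of dominant-negative Rap1 against the other agents of its table orders these gaps: 20 points lie to the right of their bar and 2 to the left, and the rest lie within it. Of the tested genes tied to ISG15, ISG15 and UBE2L6 lay above the other agents there and the ISG15 protease USP18 below. HERC6, at 7.83, lay within their range of 7.71 to 8.27.

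LY294002 was the lowest of the 3 first-table agents in 33 of 36 members (91.7%), against 39.3% of all genes, and the highest in 0 (39.4% of all genes). The exceptions were IRF9, SAMHD1 and GBP2. IRF1 was 6.99 with LY294002, against 7.93 with GM6001 and 8.48 with MMPs and ADAMs. TRIM22, an antiviral ubiquitin ligase, was 7.82 with LY294002, against 9.46 and 9.23 with those agents. IFI44L was 6.97, against 8.11 and 8.29. IFIT1 was 8.29 with LY294002, above all T4 samples. GM6001 was the highest of the 3 in 22 members (61.1%, against 31.8% of all genes).

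AIIB2 was the highest second-table agent in 5 members (13.9%, against 19.2% of all genes), namely OASL, HERC6, ISG20, IFI27 and LGALS3BP. IFI27, a mitochondrial protein, was 8.81 with AIIB2, and the other 8 agents lay between 6.79 and 7.70. RSAD2, the radical SAM enzyme viperin, was below the filter as a gene but was 7.90 with AIIB2 and at most 6.97 with any other agent, while it was 6.77, 6.64 and 6.87 in T4. PSME1 and PSME2, which form the activator of the immunoproteasome, passed in no comparison. PSME1 was 10.38, 10.28 and 9.40 in T4, against 10.68, 10.83 and 10.18 in S1 (-0.59, adjusted p = 0.104; -0.52 and 0.0449 with replicate number as a block).

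Of the 18 tested members that passed in no comparison, the DNA sensor IFI16 and the nuclear body protein SP110 differed by -0.36 and -0.06 between T4 and S1. IFI16 was lower in T4 without S1 sample 3 (-0.58, adjusted p = 0.0479), and, within the first table alone, lower in T4 (-0.58, adjusted p = 0.0183) and in T4R (-0.61, adjusted p = 0.0223) than in S1. TRIM22 was spread most within S1, at 7.35, 7.67 and 9.94, and ran from 7.82 with LY294002 to 10.14 with PD98059 in T4R, with 8.11, 8.10 and 7.35 in T4. XAF1, a pro-apoptotic partner of XIAP, and IFI6, which protects cells at the endoplasmic reticulum, differed from S1 by 0.27 and 0.37 in T4R and did not pass.

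The interferon pathway around these genes was read from a further list of 58 genes, of which 51 were measured and 41 tested. Between T4 and S1, 15 were higher (36.6%) and 4 lower (9.76%), against 14.6% and 12.3% of all genes. Between T4R and T4, 5 were higher (12.2%) and 4 lower (9.76%), against 6.46% and 8.44% of all genes. Between T4R and S1, 15 were higher (36.6%) and 6 lower (14.6%), against 11.8% and 11.4% of all genes. The ligands IFNA1, IFNA2, IFNB1 and IFNG were all below the filter, with no value above 7.11 in any sample.

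Receptor chains moved in different directions. IFNAR2, the signalling chain for type I interferon, was 8.75, 8.69 and 8.48 in T4, against 7.62, 7.78 and 7.96 in S1 (0.87, adjusted p = 0.000197). In T4R it ran from 7.98 with Tyrphostin AG 1478 through 8.11 to 8.35 with dominant-negative Rap1 and lay below all T4 samples (-0.54, adjusted p = 0.0066). IFNGR1, the ligand-binding chain for interferon gamma, ran from 11.01 with AIIB2 through 11.56 to 11.70 with MMPs and ADAMs in T4R, above 10.50, 10.75 and 9.81 in T4 (1.46, adjusted p = 0.00204). IFNGR2 was higher in T4 than in S1 (1.07, adjusted p = 0.00869), and IFNAR1 was not called (0.12). The kinase JAK2 was lower in T4 than in S1 (-1.31, adjusted p = 8.6e-05) and higher in T4R than in T4 (0.57, adjusted p = 0.0238). JAK1 was also higher in T4R than in T4 (0.43, adjusted p = 0.0494). TYK2 went the other way: it was higher in T4 than in S1 (0.53, adjusted p = 0.0116). Its difference of -0.38 between T4R and T4 did not pass (adjusted p = 0.0615).

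Among sensors, RIGI (0.95, adjusted p = 0.0434) and IFIH1 (0.76, adjusted p = 0.015), which detect viral RNA in the cytoplasm, were higher in T4 than in S1, while their adaptor MAVS was lower (-0.70, adjusted p = 0.00199). TICAM1, the adaptor of TLR3, was higher in T4 than in S1 (0.63, adjusted p = 0.00167) and lower in T4R than in T4 (-0.58, adjusted p = 0.00378). PARP12, an interferon-stimulated ADP-ribosyltransferase outside the 41, was 8.51, 8.44 and 8.73 in T4, against 7.24, 7.15 and 7.07 in S1 (1.48, adjusted p = 4.7e-05), and it was lower in T4R than in T4 (-0.65, adjusted p = 0.0145) as ISG20 was. IFI30, a lysosomal thiol reductase that interferon gamma induces, was higher in T4R than in T4 (0.69, adjusted p = 0.013). Of the inhibitors, PTPN2 was higher (0.79, adjusted p = 0.000263) and PIAS1 lower (-0.87, adjusted p = 0.00073) in T4 than in S1.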

How the data were processed

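Log2 expression values were used as deposited by the authors in 2 tables of 22215 probe sets. The software, background correction and normalization are not stated in the labels or files, nor whether both tables were normalized together, and depth has no counterpart on arrays, where their number limits the precision. Of the probe sets, 19707 named 1 gene, 614 several and 1706 none in the platform annotation, and 188 differed between the array types. Symbols were updated through the RefSeq gene table (19689 probe sets). Each gene took its probe set with the highest mean, and the dimmest 25% (mean log2 under 6.97) were left out. limma 3.58.1 in R 4.3.3 (lmFit, eBayes) was fitted to all 15 samples with T4R, T4 and S1 as groups and the table as a block, and p-values were Benjamini-Hochberg adjusted over 9111 genes. Differences, SE and adjusted p are from this fit, and removing the table step can give a fitted difference another size than the group means. Scripts were tested on simulated data. Since separate cultures are not stated, p-values measure only how these samples spread, which may be technical.

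The 41 members and all lists were chosen with earlier results of these data known. The rule for genes given in full named the 16 members with the smallest adjusted p in any comparison. It also named ISG15, IFIT1, MX1, OAS1, STAT2, IRF9, IRF7 and IRF1. For these each T4 and S1 value is given, with the lowest, median and highest of T4R. IRF7 has only its T4R range, and STAT2, which was not analysed, has no values. Same-numbered T4 and S1 samples deviated together (r = 0.282, 0.315 and 0.391 for numbers 1, 2 and 3, across genes). No correlation between samples of different numbers was computed, and sample 3 stood apart in both lines. These values therefore cannot show that the numbers pair the samples. Replicate number was used as a block in an alternative fit only, and the blocked value is given where it changes a call. The alternatives covered the probe set, the filter, normalization, the table block, array weights, the block of replicate number and omitted samples.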

Additional observations from a re-analysis of the deposited data

Results flagged for a closer look

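In 10 of 40 measured members, 1 of the 9 T4R samples lay beyond Dixon's critical share of the group's range from its nearest neighbour. For a single group, chance gives this in about 1 of 20. The members are read from the same 9 samples, with the step between tables left in, so they are not separate draws. The share of all genes flagged was not computed, so the count is a description only. Dominant-negative Rap1 was the highest of the 6 second-table agents in 27.4% of all genes and the lowest in 27.5%. Each agent has 1 sample, so an agent and its sample cannot be told apart.

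Dominant-negative Rap1 was the highest sample in 5 of them. IRF9 was 9.51 there with the next T4R sample at 8.31, IFIT1 was 9.29 with the next at 8.52, and IFITM3 was 13.49 with the next at 12.98. GBP2 was 10.41 with the next at 9.67, and IFI44 was 8.49 with the next at 7.79.

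LY294002 was the lowest sample for IRF1, at 6.99 with the next at 7.93, and for PSME2, at 9.96 with the next at 10.65. AIIB2 was the highest for RSAD2, at 7.90 with the next at 6.97, and for IFI27, at 8.81 with the next at 7.70. MMPs and ADAMs was the highest for IRF7, at 6.83 with the next at 6.67, and both IRF7 values lie below the filter on dim probe sets.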

How the results depend on the processing

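Of 30 calls of single members, 16 held under every alternative run, and none reversed in any of them; 51 values fell short of the threshold, and the cause was not tested. The 16 include LGALS3BP, IFITM2, IFI35 and BST2 in T4R against S1, OAS2, ISG20, LGALS3BP, IFITM2 and IFI35 in T4 against S1, and USP18, IFIT5 and BST2 in T4R against T4. With array weights the members called numbered 19 in T4 against S1, 13 in T4R against T4 and 26 in T4R against S1, in place of 10, 6 and 14. Among the calls gained there, IFIT1, IFI16 and PSME1 were lower in T4 than in S1. IRF9 was lower in T4R than in T4, and IRF9 and IFI16 were lower in T4R than in S1. The shares of all genes called under the alternatives are not given here, so no count of members under an alternative is set against them. T4 against S1 had 16 when the samples that stood apart (S1 sample 3, T4 sample 3, and the T4R sample with dominant-negative Rap1) were omitted, an alternative chosen after seeing the data. Omission of single samples gave 7 to 12 in T4 against S1, 3 to 8 in T4R against T4 (3 without T4 sample 1), 8 to 21 in T4R against S1 (8 without S1 sample 3) and 0 throughout for the agent classes. The first table alone gave 12 (9 higher and 3 lower, IFIT1, IFIT5 and IFI16), 6 (5 higher and ISG20 lower) and 13 (11 higher, with IRF9 and IFI16 lower). With replicate number as a block, T4 against S1 had 14, with IFITM3, BST2, UBE2L6 and PSME1 added and no other call changed. Whether the numbers pair the samples is not known. T4R samples carry no numbers, so their comparisons have no such fit. Within the first table UBE2L6, OAS2 and MX1 were no longer called in T4R against S1 (adjusted p = 0.0962, 0.0988 and 0.113). OAS1 in T4 against S1 lost its call with probe sets averaged (0.0815) and with no filter (0.0513).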

Other observations

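Interferon-stimulated genes outside the 41 included further genes with single high or low T4R samples, given as values with no test. The chemokine CXCL10 was 8.59 with dominant-negative Rap1 and at most 7.43 with any other agent, with 7.05, 7.14 and 7.17 in T4. CXCL11, a chemokine for the same receptor, was 8.19 with dominant-negative Rap1 and at most 6.88 with the others, and its mean over all samples was below the filter on dim probe sets. The complement protease C1S was 11.94 with dominant-negative Rap1 and 10.58 or less with the others, and was lowest with AIIB2 (8.20) and LY294002 (8.34). Its T4 values were 8.49, 8.33 and 7.96. The viral RNA sensor RIGI was 8.71 with dominant-negative Rap1 and 8.17 with AIIB2, and 7.18 with LY294002.

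RTP4, an interferon-stimulated chaperone of membrane receptors, was 7.0 with LY294002 and between 7.73 and 8.40 with the other 8 agents, against 7.04, 6.92 and 6.85 in S1. NMI, the partner of IFI35, was 9.61 with LY294002 and between 9.89 and 10.32 with the other agents, against 9.21, 9.32 and 8.07 in S1. Both were higher in T4R than in S1 (0.93, limma adjusted p = 0.0102, and 1.30, adjusted p = 0.000774) and not called between T4R and T4.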
